A study of Mus musculus with 12 samples.

Results

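Fgf21, Stc1 and Stc2 encode secreted signalling proteins that cells release under metabolic, hypoxic or endoplasmic reticulum (ER) stress. They were taken as a set of 4 genes with Gdf15, which is not analysed here. The genes were chosen by symbol with their measured signals in these 4 groups already known, and where a gene has several probes (transcript clusters of the array) the brightest was to be used. Each of the 3 genes had 1 named probe, so they stand for 3 of 19505 genes with a named probe. Because their levels entered that choice, the levels and differences of these 3 genes are given as a description with no test.

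The TSC1 cells (S100β-v-erbB/p53-/-) were of the FVB-NJ strain and grown in DMEM F-12 with B27. In them v-erbB, an active receptor tyrosine kinase, is driven by the glial S100β promoter and p53 is deleted. All groups share both alterations. There were 4 groups of 3 arrays, 12 arrays in all: hypoxia with brefeldin A (BFA), hypoxia with EHT-1864, hypoxia with the solvent DMSO, and normoxia with DMSO, each for 16 h. BFA blocks the activation of ARF GTPases and so the traffic from the ER to the Golgi, and EHT-1864 inhibits Rac GTPases. EHT-1864 was used at 1 µM, while the dose of BFA stands as 1 µM in the treatment protocol and as 0.1 µM in the series title. The design names 3 independent cultures of this line, and nothing ties arrays of equal number to a shared culture.

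FGF21 is a hormone of the fibroblast growth factor family that acts on FGF receptors through the co-receptor β-Klotho, and its gene is a known target of ATF4, the transcription factor of the integrated stress response (ISR). Stanniocalcins 1 and 2 are secreted glycoproteins first described as calcium regulators in fish. In mammals they bind and block the PAPP-A proteases, which cut insulin-like growth factor (IGF) binding proteins, and in human tumour cells both genes are known to respond to hypoxia.

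The bases upstream of the transcription starts are shown for Fgf21 and Stc2, because known stress elements there can be set beside the levels that follow. They come from RefSeq sequence of build GRCm38.p6, both on the minus strand. Fgf21 lies on chromosome 7 from 45613890 to 45615490, Stc2 on chromosome 11 from 31359441 to 31370061 and Stc1 on chromosome 14 from 69029289 to 69041401. Capitals mark matches on either strand to TGATGNAA (the amino acid response element bound by ATF4 with C/EBP factors), ACGTG and GCGTG (cores of hypoxia response elements) and CCACG (part of the ER stress response element).
Fgf21, 250 bases upstream, chr7:45615491-45615740: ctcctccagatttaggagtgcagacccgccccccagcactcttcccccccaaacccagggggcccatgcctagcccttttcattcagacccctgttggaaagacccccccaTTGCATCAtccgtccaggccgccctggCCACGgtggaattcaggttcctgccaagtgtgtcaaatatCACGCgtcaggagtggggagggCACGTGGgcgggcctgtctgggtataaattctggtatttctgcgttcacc
Stc2, 250 bases upstream, chr11:31370062-31370311: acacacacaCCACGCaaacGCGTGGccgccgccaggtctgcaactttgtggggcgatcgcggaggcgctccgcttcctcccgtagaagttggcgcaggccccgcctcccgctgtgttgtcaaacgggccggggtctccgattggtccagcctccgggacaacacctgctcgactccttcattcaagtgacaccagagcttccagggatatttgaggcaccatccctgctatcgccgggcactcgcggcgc

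The Fgf21 window held 1 match to TGATGNAA, read as TTGCATCA on the printed strand, from 139 to 132 bases upstream of the start. It also held 2 matches to ACGTG and 2 to CCACG, of which both ACGTG matches and 1 CCACG match overlap within 7 printed bases, and 1 match to GCGTG. The Stc2 window held no match to TGATGNAA or ACGTG and 2 matches each to GCGTG and CCACG, which overlap pairwise at the far end of the window. Among 32851 RefSeq windows of the same length, 3.45% held TGATGNAA, 16.57% ACGTG, 28.16% GCGTG and 28.34% CCACG. These matches describe letters in a window and were not tested as binding sites.

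Values are log2 signals after RMA normalization. The floor of an array is the 95th percentile of its 5222 negative control probes, and a probe under it is not well above background. The floor lay between 6.37 and 6.65 with BFA and between 5.88 and 6.15 with EHT-1864, against 5.60 to 5.64 in hypoxia with DMSO and 5.59 to 5.64 in normoxia. The share of probes under the floor averaged 65.2% with BFA, 57.6% with EHT-1864, 51.7% in hypoxia with DMSO and 52.1% in normoxia. The hybridization control probes averaged 10.93 with BFA, 10.25 with EHT-1864, 9.76 in hypoxia with DMSO and 9.85 in normoxia. These shifts of the controls went along with each comparison that involves a compound, and their part in the results was not tested. In normoxia, 7 of 8 measured oligodendrocyte lineage markers were above the floor on all 3 arrays, while 6 of 6 microglia and 5 of 5 endothelial markers were under it on all 12 arrays. Of the other panels, 5 of 8 astrocyte and radial glia, 3 of 5 neuron and 1 of 6 fibroblast and pericyte markers were above it in normoxia. The oligodendrocyte markers averaged 6.97 to 7.07 per array with BFA and 8.30 to 8.47 with EHT-1864, against 9.37 to 9.47 in hypoxia with DMSO. The astrocyte and radial glia markers averaged 6.75 to 6.89 with BFA and 7.37 to 7.44 with EHT-1864, against 7.68 to 7.80 in hypoxia with DMSO, and whether either bears on the genes below was not tested.

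Fgf21 was bright in hypoxia with BFA and dim in the other groups. Its log2 signal was 11.18, 11.46 and 11.36 with BFA, and 4.41, 4.26 and 5.22 with EHT-1864. It was 5.26, 5.66 and 5.44 in hypoxia with DMSO, and 3.52, 4.31 and 3.63 in normoxia. All BFA arrays stood far above every other array and above their floor, 1 of 3 hypoxic DMSO arrays passed its floor by a small margin, and the EHT-1864 and normoxic arrays were all under it.

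The group means of Fgf21 were 11.33 ± 0.14 with BFA, 4.63 ± 0.51 with EHT-1864, 5.45 ± 0.20 in hypoxia with DMSO and 3.82 ± 0.43 in normoxia (SD, n = 3 each). The BFA mean was higher than that of hypoxia with DMSO by 5.88 ± 0.25 on the log2 scale (standard error of the limma fit), with 1 of 3 DMSO arrays above the floor, so no fold is given. Against groups wholly under the floor Fgf21 was at least 40.1-fold higher with BFA than with EHT-1864, and at least 52.8-fold higher with BFA than in normoxia. In cultures measured in bulk, fewer cells that express a gene and less RNA per cell cannot be told apart.

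Below BFA, the order of Fgf21 was hypoxia with DMSO, EHT-1864 and normoxia. The highest EHT-1864 array lay just under the lowest hypoxic DMSO array, and the EHT-1864 arrays overlapped with those of normoxia. The measured difference was 1.63 ± 0.25 for hypoxia against normoxia and −0.82 ± 0.25 for EHT-1864 against DMSO in hypoxia. Both rest on signals that are nearly all under the floor, so no fold is given for them.

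Stc1 was above the floor on all arrays of hypoxia with DMSO and on none of the other groups. Its signal was 6.56, 5.95 and 5.90 with BFA, and 4.01, 4.54 and 4.74 with EHT-1864. It was 6.54, 6.64 and 6.48 in hypoxia with DMSO, and 3.95, 4.31 and 3.91 in normoxia. The arrays of hypoxia with DMSO overlapped with those of BFA, and the EHT-1864 arrays overlapped with those of normoxia, while these pairs of groups lay well apart from each other.

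The group means of Stc1 were 6.14 ± 0.37 with BFA, 4.43 ± 0.38 with EHT-1864, 6.55 ± 0.08 in hypoxia with DMSO and 4.05 ± 0.22 in normoxia (SD, n = 3 each). Stc1 was at least 1.925-fold higher in hypoxia than in normoxia, and at least 1.46-fold lower with EHT-1864 than with DMSO in hypoxia. The measured log2 differences were 2.50 ± 0.21 and −2.13 ± 0.21, against groups under the floor on every array.

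BFA left the measured signal of Stc1 near that of hypoxia with DMSO, but the floor of the BFA arrays was higher. The difference of BFA against DMSO was −0.42 ± 0.21, and it was −0.12 after a further quantile normalization and −0.63 without BFA array 1. Relative to the floor of its own array, the signal stood at −0.09, −0.42 and −0.55 with BFA, against 0.94, 1.00 and 0.89 in hypoxia with DMSO. Stc1 was thus not well above background on any BFA array, by a small margin on array 1, and above the floor on each hypoxic DMSO array. The bound from the means was 1.04-fold lower with BFA, but the arrays of these groups overlapped, so no fall is stated. BFA and EHT-1864 arrays did not overlap, with a measured difference of 1.71 ± 0.21, but both groups were under the floor and no fold is given.

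Stc2 was above the floor on all 12 arrays. The margin was 0.44 to 1.86 with BFA and 0.67 to 1.37 with EHT-1864. It was 2.48 to 2.69 in hypoxia with DMSO and 1.04 to 1.44 in normoxia. Whether background narrowed its differences was not tested. The signal of Stc2 was 7.09, 8.24 and 7.98 with BFA, and 7.18, 6.82 and 7.25 with EHT-1864. It was 8.30, 8.12 and 8.21 in hypoxia with DMSO, and 6.83, 7.04 and 6.68 in normoxia. BFA array 1 was as low as the EHT-1864 arrays, and the other BFA arrays were near those of hypoxia with DMSO.

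The group means of Stc2 were 7.77 ± 0.60 with BFA, 7.08 ± 0.23 with EHT-1864, 8.21 ± 0.09 in hypoxia with DMSO and 6.85 ± 0.18 in normoxia (SD, n = 3 each). In hypoxia with DMSO it was higher than in normoxia by 1.36 ± 0.24 on the log2 scale (2.57-fold), with no overlap of arrays. With EHT-1864 it was lower than with DMSO in hypoxia, at −1.13 ± 0.24 (2.18-fold), again with no overlap. EHT-1864 in hypoxia and normoxia overlapped and differed by 0.23 ± 0.24.

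The BFA values of Stc2 depended on single arrays. The difference of BFA against DMSO was −0.44 ± 0.24 with overlapping arrays. It was −0.10 without BFA array 1, −0.67 without BFA array 2, and −0.13 after quantile normalization. The difference of BFA against EHT-1864 was 0.69 ± 0.24, also with overlap, and 0.45 without BFA array 2. Against normoxia the BFA group was higher by 0.92 ± 0.24 (1.89-fold). The arrays did not overlap only by a small margin, with BFA array 1 at 7.09 and the highest normoxic array at 7.04. Relative to the floor of each array these groups overlapped, at 0.44 to 1.86 with BFA and 1.04 to 1.44 in normoxia.

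**Figure D1:**
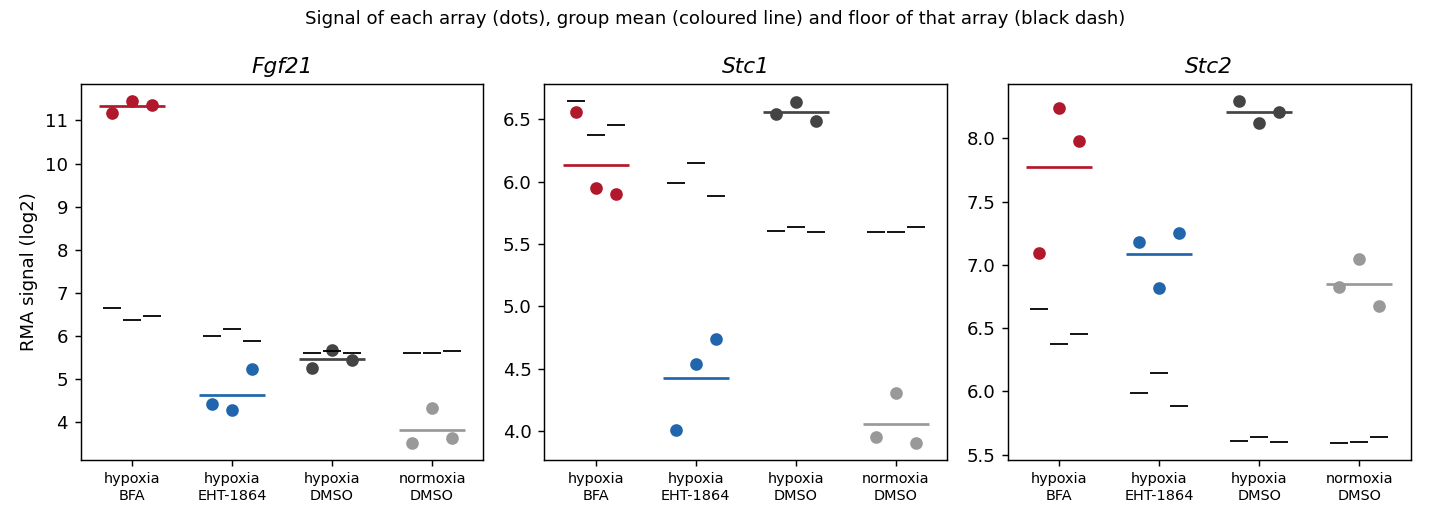
Log2 RMA signal of Fgf21, Stc1 and Stc2 on each of the 12 arrays, with the groups from left to right hypoxia with BFA, hypoxia with EHT-1864, hypoxia with DMSO and normoxia with DMSO. Dots are arrays, coloured lines group means and black dashes the floor of each array, and each gene has its own vertical scale. Fgf21 stands near 11.33 with BFA and Stc2 is above the floor everywhere.

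Side by side, hypoxia with DMSO was higher than normoxia in 3 of 3 genes without overlap of arrays, as were 14% of all probes. EHT-1864 was lower than DMSO in hypoxia in 3 of 3 genes without overlap, as were 24.3% of all probes. BFA was higher than DMSO without overlap in 1 of 3 genes, Fgf21, as were 28.7% of all probes, and the arrays of both stanniocalcins overlapped. BFA was higher than EHT-1864 without overlap in 2 of 3 genes, as were 20.3% of all probes, and higher than normoxia in 3 of 3, as were 26.7%. The first 3 of these comparisons share the arrays of hypoxia with DMSO, the 3 with BFA share the BFA arrays, and the genes were chosen with these values known. Several of these counts rest on signals under the floor. Stc1 was under it on every BFA, EHT-1864 and normoxic array. Fgf21 was above it on 1 of 3 hypoxic DMSO arrays and on no EHT-1864 or normoxic array. For Stc2 the lowest BFA array was only just above the highest normoxic array.

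**Figure D2:**
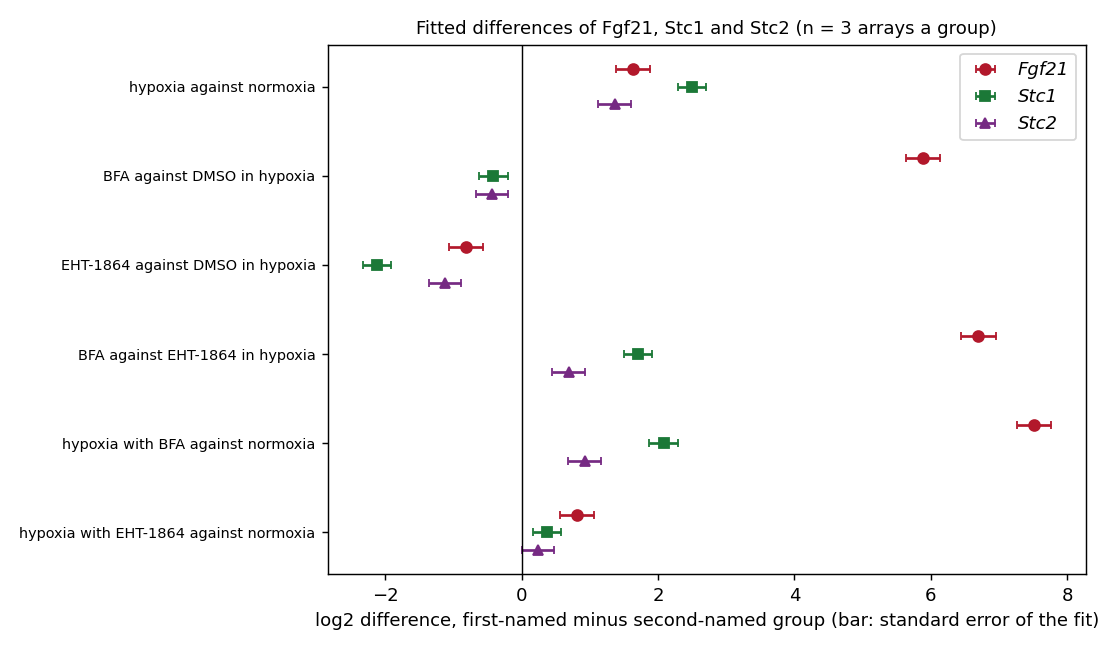
Fitted log2 differences of Fgf21 (circles), Stc1 (squares) and Stc2 (triangles) for 6 comparisons, each as the first-named minus the second-named group, with bars for the standard error of the limma fit over 12 arrays. Fgf21 with BFA against DMSO lies at 5.88 while Stc1 and Stc2 lie at −0.42 and −0.44; differences of groups under the floor are those of the measured signals.

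The genes around these hormones were followed in 7 lists of 155 genes, of which 148 were measured, and these were tested with limma over all probes (adjusted p threshold 0.05). The lists were made from general knowledge of the pathways, with earlier results of these data known. Of all 22206 probes, 50.7% passed for BFA against DMSO in hypoxia, 26.1% as higher and 24.6% as lower. For EHT-1864 against DMSO 30.5% passed, 13% as higher and 17.4% as lower. For BFA against EHT-1864 36.5% passed, 16.9% as higher and 19.6% as lower, and for hypoxia against normoxia 2.67%, 2.11% as higher and 0.563% as lower. With a floor filter, which kept probes past the floor on 3 arrays or more, the balance shifted: 2155 were higher and 5268 lower with BFA against DMSO (5799 and 5470 without the filter), 2042 and 4005 with EHT-1864 against DMSO (2893 and 3874 without), 2523 and 4374 for BFA against EHT-1864 (3760 and 4348 without), and 790 and 457 in hypoxia (468 and 125 without).

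The ISR list holds the eIF2α kinases, ATF4 with its partners and their target genes. Of its 28 genes, 13 rose and 4 fell with BFA against DMSO in hypoxia (median 0.33, against 0.11 over all probes). With EHT-1864, 4 rose and 6 fell (median −0.07, against 0.06). In hypoxia against normoxia, 17 rose and none fell (median 0.70, against −0.03). Over all probes, 26.1% passed as higher and 24.6% as lower with BFA, and 13% and 17.4% with EHT-1864. In hypoxia these shares were 2.11% and 0.563%.

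Atf4 itself was measured at 12.06, 12.15 and 12.03 with BFA, 11.12, 11.05 and 11.25 with EHT-1864, 10.89, 11.11 and 10.96 in hypoxia with DMSO and 10.12, 10.29 and 10.38 in normoxia. It rose by 1.09 ± 0.12 with BFA (adjusted p = 8.64e-06) and by 0.72 ± 0.12 in hypoxia (adjusted p = 0.00514). With EHT-1864 it differed by 0.15 ± 0.12 (adjusted p = 0.354). The BFA and hypoxic DMSO arrays of Atf4 thus stood in the order seen for Fgf21, at a far smaller distance. Of all probes, 28.7% were likewise higher with BFA than with DMSO without overlap. The place of EHT-1864 differed: Atf4 averaged 11.14 there and 10.98 in hypoxia with DMSO, and Fgf21 4.63 and 5.45. A link between Atf4 and Fgf21 was not tested.

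Ddit3, which encodes the stress factor CHOP, was raised by both compounds and by hypoxia. It rose by 2.49 ± 0.16 with BFA (adjusted p = 7.88e-08), by 1.66 ± 0.16 with EHT-1864 (adjusted p = 1.15e-05) and by 1.74 ± 0.16 in hypoxia (adjusted p = 2.45e-05). Atf3, a further stress-induced factor, rose by 3.07 ± 0.13 with BFA and by 2.28 ± 0.13 with EHT-1864, and differed by 0.44 ± 0.13 in hypoxia (adjusted p = 0.118). Fgf21, by comparison, was under the floor on all EHT-1864 arrays, on which Ddit3 read 10.66, 10.31 and 10.69 and Atf3 read 8.94, 8.98 and 8.92.

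Other ISR genes named were Ppp1r15a, the phosphatase subunit that ends the response, which rose by 2.01 ± 0.14 with BFA (adjusted p = 2.06e-07), and Ddit4, an inhibitor of mTORC1. Ddit4 rose by 2.34 ± 0.19 in hypoxia and fell by 1.79 on the log2 scale with EHT-1864 (SE 0.19, adjusted p = 2.79e-05). The stress regulator Nupr1 and the cystine transporter Slc7a11 rose by 2.28 ± 0.17 and 2.03 ± 0.18 in hypoxia. Between the compounds, Slc7a11 was higher with BFA by 2.93 ± 0.18 (adjusted p = 1.13e-07, 2 of 3 EHT-1864 arrays above the floor), and Pck2, the mitochondrial phosphoenolpyruvate carboxykinase, by 1.86 ± 0.19. The element TGATGNAA seen in the Fgf21 window was present in 7 of 26 genes of this list with a promoter window (26.92%), against 3.91% of 27025 genes. These were Atf3, Nupr1, Asns, Chac1, Vldlr, Slc7a11 and Pck2. The list was made to hold target genes of ATF4, so a higher share of its element is no test and says nothing of Fgf21.

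Genes of ER folding rose together with BFA. All 16 measured genes of the list passed as higher with BFA against DMSO (median 1.14), and all 16 as higher with BFA against EHT-1864 (median 1.81). The chaperone gene Hspa5 (BiP) averaged 13.30 ± 0.05 with BFA and 12.03 ± 0.01 with DMSO in hypoxia (SD, n = 3 each), a rise of 1.27 ± 0.10 (adjusted p = 5.38e-07). Derl3, of the ER degradation machinery, rose by 2.56 ± 0.13. The co-chaperone gene Dnajb9 rose by 2.35 ± 0.12 and Creld2, induced by ER stress, by 1.90 ± 0.11. The largest differences between BFA and EHT-1864 were those of Creld2 at 2.46 ± 0.11, of Hyou1, a large ER chaperone, at 2.37 ± 0.13 and of Derl3 at 2.01 ± 0.13. With EHT-1864, 2 genes rose and 7 fell (median −0.25), among them Hspa5 at −0.65 ± 0.10 (adjusted p = 4.33e-04), Pdia6, a disulfide isomerase, at −1.001 ± 0.12, Xbp1, a transcription factor of the unfolded protein response, at −0.92 ± 0.16, and Sel1l, an ER degradation adaptor, at −0.87 ± 0.16.

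In hypoxia against normoxia 1 gene of the ER list rose, Atf6, at 0.61 ± 0.12, and 1 fell, Sdf2l1, at −0.53 ± 0.12 (adjusted p = 0.0194 and 0.0306). Neither passed when any 1 of the 6 arrays compared was left out, with adjusted p up to 0.092 for Atf6 and 0.127 for Sdf2l1. With the replicate number as a block Sdf2l1 had an adjusted p of 0.0674. With a trended robust variance 5 genes of the list passed, 3 as higher and 2 as lower.

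The HIF list, of HIF subunits and known hypoxia targets, moved in the direction of the stanniocalcins in hypoxia and with EHT-1864. Of 21 genes, 18 rose and none fell in hypoxia (median 2.34), and 18 fell and 1 rose with EHT-1864 (median −1.36). With BFA, 16 fell and none rose (median −1.03), where Stc1 and Stc2 were measured at −0.42 and −0.44. Vegfa, the angiogenic factor, averaged 10.13 ± 0.14 with BFA, 9.33 ± 0.44 with EHT-1864, 10.49 ± 0.18 in hypoxia with DMSO and 7.40 ± 0.22 in normoxia (SD, n = 3 each). It rose by 3.09 ± 0.20 in hypoxia (adjusted p = 1.01e-06), fell by 1.16 with EHT-1864 (SE 0.20, adjusted p = 8.48e-04) and differed by −0.36 ± 0.20 with BFA (adjusted p = 0.152).

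Among the steepest falls of this list, the collagen hydroxylase subunit P4ha2 fell by 3.70 with EHT-1864 (SE 0.15), Ankrd37, an ankyrin repeat gene, fell by 3.35 (SE 0.16, 1 of 3 EHT-1864 arrays above the floor), and the pyruvate dehydrogenase kinase Pdk1 fell by 3.34 (SE 0.25, 2 of 3 above). In hypoxia P4ha2, Ankrd37 and the stress gene Ndrg1 had led the rises, Ndrg1 by 4.01 ± 0.16 (adjusted p = 1.53e-08). Adm, which encodes adrenomedullin, read under the floor on all BFA arrays and passed as lower (adjusted p = 2.87e-06), with no fold because its bound was under 1. With BFA the prolyl hydroxylase Egln3 fell by 2.26 (SE 0.17) and the adenylate kinase Ak4 fell by 1.76 (SE 0.14). Hif1a, which encodes the oxygen-regulated subunit, fell by 1.03 with BFA (SE 0.13, adjusted p = 3.98e-05) and differed by −0.13 ± 0.13 with EHT-1864 (adjusted p = 0.486) and by 0.12 ± 0.13 in hypoxia (adjusted p = 0.732). ACGTG was present in 14 of 19 HIF list genes with a promoter window (73.68%), against 18.49% of all genes, and GCGTG, the form found upstream of Stc2, in 13 of 19 (68.42%), against 30.85%. The share with GCGTG was alike in other lists, at 65.38% for ISR genes, 66.67% for ER folding genes and 66.67% for stanniocalcin partners. In the same lists the share with ACGTG was 23.08%, 46.67% and 33.33%. The HIF list was made of known hypoxia targets, so its shares are no test.

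**Figure D3:**
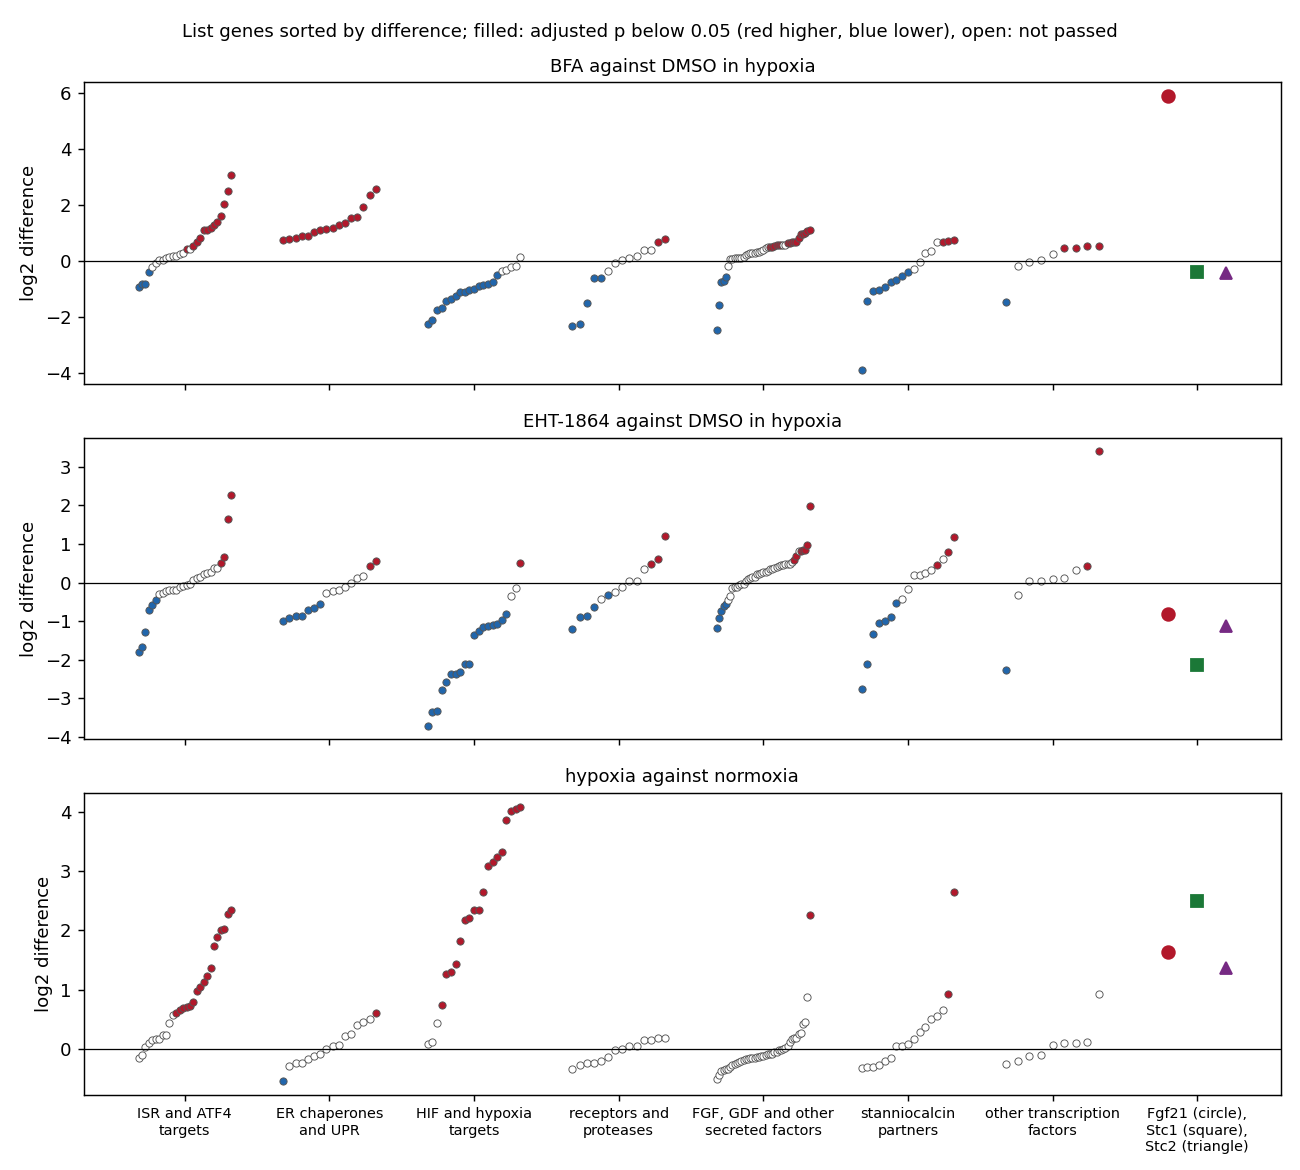
Log2 differences of the 148 measured list genes, sorted within each list, for BFA against DMSO in hypoxia (top), EHT-1864 against DMSO in hypoxia (middle) and hypoxia against normoxia (bottom). Filled points passed limma at an adjusted p of 0.05 (red higher, blue lower), open points did not, and the untested Fgf21, Stc1 and Stc2 stand at the right. All 16 ER folding genes are filled red with BFA, and Fgf21 lies above every list gene there.

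Some receptors and proteases that act on these hormones were lower with the compounds, and 6 of 14 were under the floor in every group. Klb, the β-Klotho co-receptor of FGF21, was under the floor on all 12 arrays, with group means of 4.08 ± 0.32 with BFA, 4.07 ± 0.46 with EHT-1864, 3.71 ± 0.38 in hypoxia with DMSO and 3.72 ± 0.29 in normoxia (SD, n = 3 each). Gfral and Ret, which form the receptor of GDF15, were also under the floor on all 12 arrays. Of the FGF receptors, Fgfr1 read 6.22, 6.03 and 6.03 with BFA, 6.83, 6.69 and 6.69 with EHT-1864, 7.71, 7.51 and 7.60 in hypoxia with DMSO and 7.62, 7.71 and 7.32 in normoxia. It was at least 2.17-fold lower with BFA than with DMSO (adjusted p = 9.84e-07) and fell by 0.87 on the log2 scale with EHT-1864 (SE 0.13, adjusted p = 2.97e-04).

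Fgfr3 fell by 2.27 with BFA (SE 0.16, adjusted p = 2.25e-07), and Fgfr2 rose by 1.22 ± 0.17 with EHT-1864 (adjusted p = 2.12e-04) and was at least 2.51-fold lower with BFA than with EHT-1864. The proprotein convertase Pcsk6 was at least 3.89-fold lower with BFA (adjusted p = 9.99e-08) and fell by 1.19 with EHT-1864 (SE 0.15), and Mbtps1, the site-1 protease, fell by 0.88 with EHT-1864 (SE 0.13). Furin, a convertase that cuts many secreted precursors, did not pass in any of the 4 comparisons, with differences between −0.23 and 0.12. Of 14 genes of this list, 5 fell and 2 rose with BFA, 5 fell and 3 rose with EHT-1864, and 0 passed in hypoxia, where 0 had an unadjusted limma p under the threshold. Over all probes, 24.6% passed as lower with BFA and 17.4% with EHT-1864. The 2 rises with BFA, and 2 of those with EHT-1864, were in genes under the floor in both groups. For EHT-1864 the count of 8 became 5 without hypoxic DMSO array 1 or EHT-1864 array 2, and 4 after quantile normalization.

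Relatives of FGF21 and GDF15 and other secreted stress factors were mostly not well above background. Of 43 measured genes, 33 were under the floor in both groups for BFA against DMSO, as were 14 of the 17 that passed as higher there. A further 5 passed as lower, and the total of 22 became 6 with the floor filter. Over all probes 50.7% passed for BFA against DMSO, so 22 of 43 is near that share and is not read as a result about the family. Adm2, which encodes the peptide hormone intermedin, read 7.71, 7.82 and 7.75 with BFA, 6.44, 5.62 and 6.54 with EHT-1864, 6.58, 6.74 and 6.63 in hypoxia with DMSO and 4.53, 3.995 and 4.64 in normoxia. It rose by 1.11 ± 0.22 with BFA (adjusted p = 0.00118) and was at least 2.06-fold higher in hypoxia than in normoxia (adjusted p = 5.34e-05), the 1 gene of 43 that passed there. That count became 2 with the floor filter, with a trended robust variance, with the 6 arrays compared, and without BFA array 2 or 3. Its arrays followed the order BFA, hypoxia with DMSO and normoxia that Fgf21 showed, with a much smaller rise under BFA.

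Gdf11, a growth differentiation factor, was at least 3.15-fold lower with BFA (adjusted p = 6.78e-08), and Fgf11, an intracellular member of the FGF family, at least 1.32-fold lower (adjusted p = 1.14e-04). Inhbe, which encodes an activin subunit, was under the floor on all 12 arrays. With EHT-1864, 7 of the 43 genes passed as higher, all 7 under the floor in both groups, and 5 as lower. Their total of 12 stands against 30.5% of all probes, a share near it. It became 5 with the filter on the floor and 19 when fitted on the 6 arrays compared alone. Fgf7 and Fgf9 were among the 7 and get no fold.

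The partners of the stanniocalcins gave values for the IGF axis. Pappa, which encodes the protease PAPP-A, was under the floor on all 12 arrays, with group means of 3.97 ± 0.46 with BFA, 4.06 ± 0.44 with EHT-1864, 3.27 ± 0.05 in hypoxia with DMSO and 2.90 ± 0.33 in normoxia (SD, n = 3 each). Igfbp4, a binding protein that PAPP-A cuts, was above the floor on 1 array, of hypoxia with DMSO. Igfbp5, a further substrate of this protease family, read 5.85, 5.21 and 5.67 with BFA, 6.66, 6.49 and 7.07 with EHT-1864, 9.63, 9.47 and 9.38 in hypoxia with DMSO and 6.80, 6.87 and 6.84 in normoxia. It rose by 2.66 ± 0.18 in hypoxia (adjusted p = 1.24e-06), fell by 2.75 on the log2 scale with EHT-1864 (SE 0.18, adjusted p = 3.98e-07) and was at least 8.02-fold lower with BFA (adjusted p = 6.09e-09). Its levels were thus near normoxia with EHT-1864, as for Stc1 and Stc2, and under the floor with BFA.

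Igfbp2 rose by 0.93 ± 0.13 in hypoxia (adjusted p = 0.00173), and Igfbp3 fell by 2.10 with EHT-1864 (SE 0.14, adjusted p = 6.47e-07). Orai1, the pore of store-operated calcium entry, fell by 1.43 with BFA (SE 0.18, adjusted p = 3.03e-05, 2 of 3 BFA arrays above the floor). The phosphate transporter Slc20a2 fell by 1.08 with BFA (SE 0.20) and by 1.34 with EHT-1864 (SE 0.20), with 2 of 3 arrays of each compound above the floor. Slc20a1, of the same family, was at least 2.33-fold lower with BFA than with EHT-1864 (adjusted p = 1.71e-06). In all, 9 of 17 genes fell and 3 rose with BFA (median −0.39), and 7 fell and 3 rose with EHT-1864 (median −0.17). For each compound, 2 of the 3 rises were under the floor in both groups. Over all probes, 24.6% passed as lower and 26.1% as higher with BFA, and 17.4% and 13% with EHT-1864. In hypoxia 2 rose (median 0.09), a count that became 4 with the floor filter and 5 with a trended robust variance.

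The genes nearest to each hormone were sought over the 12 arrays by the root-mean-square difference of log2 values, each centred on its own mean, among 9548 other named genes that were above the floor on all 3 arrays of at least 1 group. For Stc2 they were Wdr19, a ciliary transport protein, at 0.19, the glucose-6-phosphate transporter Slc37a4 at 0.22, Narf, which binds prelamin A, at 0.24, the glyoxylate reductase Grhpr at 0.25 and the neutral amino acid transporter Slc1a4 at 0.26. Stc2 itself spread by 0.61 on that scale. For Stc1, with a spread of 1.10, they were the phosphoglucomutase Pgm1 at 0.40, the mitochondrial hypoxia gene Higd1a at 0.41, the mitophagy receptor Bnip3 at 0.42, the mitochondrial lyase Clybl at 0.42 and Ddit4 at 0.43.

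For Fgf21, with a spread of 2.97, the nearest was Cdsn, an adhesion protein of skin, at 1.27, then Ostn, a secreted peptide, at 1.47, the GTPase Rnd1 at 1.66, the ATP-gated channel P2rx3 at 1.68 and Kdelr3, which retrieves escaped residents of the ER, at 1.83. Cdsn averaged 9.92 with BFA, 6.37 with EHT-1864, 5.59 in hypoxia with DMSO and 5.16 in normoxia. Ostn averaged 7.48 with BFA, 4.45 with EHT-1864, 3.86 in hypoxia with DMSO and 3.37 in normoxia, all but the first under the floor. Ostn was thus a candidate through BFA alone. Outside BFA its likeness to Fgf21 is between signals that are nearly all under the floor. The measure is not scaled to a gene's own spread, so its values are not compared between Fgf21, Stc1 and Stc2. All these neighbours were picked for likeness over the same arrays, so their shared pattern is not read as a result.

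**Figure D4:**
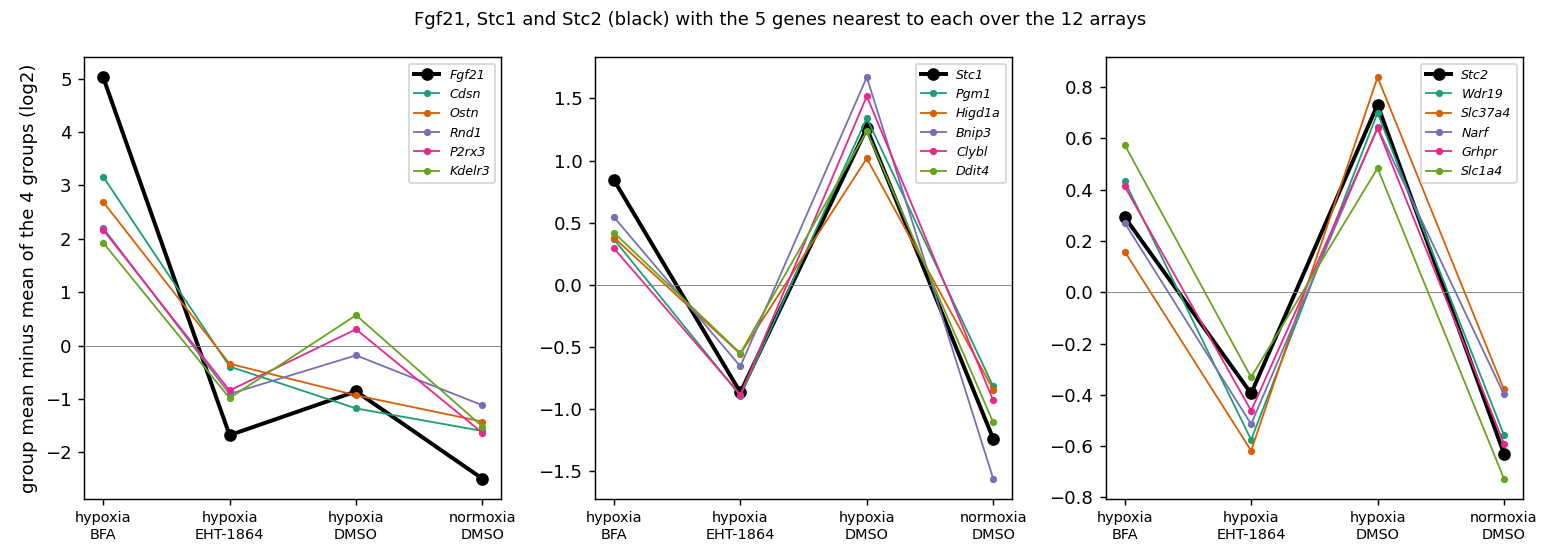
Group means of Fgf21, Stc1 and Stc2 (black) and of the 5 genes nearest to each (coloured), each minus its mean over the 4 groups, on the log2 scale, with BFA, EHT-1864, hypoxia with DMSO and normoxia from left to right. Stc1, Stc2 and their neighbours are high in hypoxia with DMSO and low with EHT-1864 and in normoxia. The neighbours were picked for likeness over these same arrays, so the shared pattern follows from that choice. The neighbours of Fgf21 reach less far under BFA than Fgf21 does. Any other gene would, because Fgf21 had the largest rise of all probes with BFA against each other group.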

How the data were processed

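The values were deposited by the authors as log2 signals, 1 per transcript cluster (here called probe) and array. Per the submitters' processing notes they were made by RMA in Affymetrix Expression Console from Clarion S mouse arrays. RMA evens out probe distributions between arrays, so a change in total RNA is not visible in the gene signals. Versions, settings and build are not given in the sources used here. Of 28846 rows, 6640 controls were left out and 22206 probes tested without a filter. GEO's platform annotation named 19572 probes with 1 symbol, 0 with several, and 2634 had none given; all 19572 matched by Entrez number to a GRCm38.p6 gene table. Several probes of a gene were reduced to the brightest, giving 19505 genes.

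All 12 arrays were fitted together in limma 3.58.1 (R 4.3.3, residual df 8, prior df 4.87), with Benjamini-Hochberg adjustment over all probes and a threshold of 0.05. The fit was tested on simulated arrays. "±" after a difference is its standard error. The p-values measure the spread between arrays of a group, which the design names as independent cultures of this line. They do not cover other lines, and the number of arrays limits precision. Where every array of a group read below the floor, a bound was computed: the brighter mean against the mean, over the dim arrays, of the higher of floor and signal. Genes named were Fgf21, Stc1 and Stc2, in each list and comparison up to 3 with the largest non-overlapping change past the threshold, 16 fixed genes (15 measured) and 5 nearest genes each. The genes and lists were chosen with earlier results of these data known. Alternatives were quantile normalization, median subtraction, a floor filter, a trended robust variance, the 6 arrays compared, the replicate number as a block and leaving out each array.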

Additional observations from a re-analysis of the deposited data

How the results depend on the processing

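The differences of Fgf21, Stc1 and Stc2 kept their sign under every alternative run. After quantile normalization, Stc1 was 2.29 for hypoxia against normoxia and −0.12 for BFA against DMSO, and Stc2 was −0.93 for EHT-1864 against DMSO, each moved by more than the SD pooled over the arrays of both groups compared. The cause was not tested. Each gene had 1 named probe, so no other probe could be tried.

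For hypoxia against normoxia, 593 probes passed, 1247 with the floor filter, 1221 with a trended robust variance, 1234 with the 6 arrays compared, and 254 to 898 when 1 array was left out (254 to 315 without an array of the 2 groups, 898 without BFA array 1). For BFA against DMSO, 11269 passed, and 7423 with the floor filter, which tests fewer probes. With the replicate number as a block, 442 passed for hypoxia against normoxia, 10938 for BFA against DMSO, 6349 for EHT-1864 against DMSO and 7816 for BFA against EHT-1864. Of 18 correlations between arrays of equal number 1 exceeded 0.1, and 3 of 12 arrays correlated best with an array of their own number.

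Of 99 calls of named genes, 90 held under every alternative run and none changed sign. The 9 lost under at least 1 were Atf6 and Sdf2l1 in hypoxia, Gfral, Inhbe and Pappa with BFA, Rxra, Ret and Pappa with EHT-1864, and Gfral between the compounds. Of these, Gfral, Inhbe, Ret and Pappa were under the floor in the groups compared.

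Of 30 differences of named genes that did not pass, 11 changed sign under some setting and passed in none of those. After quantile normalization Klb read 0.0613 and Inhbe 0.0081 in hypoxia, Nfe2l2 0.302 with BFA, Gfral −0.0671 and Furin 0.119 with EHT-1864, and Klb −0.124 between the compounds. After median subtraction Nfe2l2 read 0.0239 with BFA and Inhbe 0.0157 with EHT-1864. With 1 array left out, the values in hypoxia ran from −0.0561 to 0.138 for Fgfr1, from −0.154 to 0.207 for Klb and from −0.186 to 0.0519 for Inhbe. With BFA they ran from −0.0781 to 0.113 for Furin and from −0.152 to 0.0863 for Nfe2l2, and with EHT-1864 from −0.0748 to 0.131 for Gfral and from −0.162 to 0.0762 for Inhbe. Between the compounds they ran from −0.25 to 0.184 for Klb, from −0.106 to 0.211 for Ret and from −0.299 to 0.171 for Pappa.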

Other observations

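Further transcription factors known to act on Fgf21 or Gdf15 in other tissues were followed as a list of 9 measured genes. With EHT-1864, Ppargc1a, the coactivator of mitochondrial biogenesis, was at least 9.02-fold higher than with DMSO in hypoxia (adjusted p = 7.24e-07), and it was at least 4.91-fold lower with BFA than with EHT-1864 (adjusted p = 4.33e-07). Egr1, an immediate early factor, fell by 1.49 with BFA (SE 0.14, adjusted p = 2.60e-06) and by 2.26 with EHT-1864 (SE 0.14, adjusted p = 3.37e-07). The lysosomal regulators Tfe3 and Tfeb rose by 0.53 ± 0.13 and 0.53 ± 0.14 with BFA (adjusted p = 0.0041 and 0.00615). With EHT-1864 Rxra, a partner of nuclear receptors, rose by 0.44 ± 0.12 (adjusted p = 0.0128), a call lost without EHT-1864 array 1 (adjusted p = 0.0521). Nfe2l2, which encodes NRF2, did not pass in any of the 4 comparisons (adjusted p from 0.0869 to 0.805). In all, 4 rose and 1 fell with BFA, 2 of the rises under the floor in both groups, 2 rose and 1 fell with EHT-1864, and 0 passed in hypoxia, where 1 had an unadjusted limma p under the threshold and 1 passed with a trended robust variance, with the floor filter, with the 6 arrays compared, and without normoxic array 1, BFA array 1 or BFA array 3. Over all probes, 50.7% passed with BFA, 30.5% with EHT-1864 and 2.67% in hypoxia. The totals of the list with each compound are near these shares and are not read as a result about its genes. The count of 5 with BFA became 3 without hypoxic DMSO array 2 or 3, after quantile normalization, with the floor filter and with a trended robust variance.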
